A study of Mus musculus with 9 samples.

Results

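Calcineurin, NFAT, NR4A and EGR genes that take part in VEGF signalling were followed in endothelial cells (ECs) sorted from mouse lungs. The 7 genes were chosen by name as Rcan1, Nfatc1, Nr4a1, Nr4a2, Nr4a3, Egr2 and Egr3. Where a gene had several probe sets, the one of highest average level over the 9 arrays stood for it, and all 7 were found among the 18193 genes measured. The 3 groups held 3 Affymetrix Mouse Genome 430 arrays each, and the deposited values are expression levels on a log2 scale.

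The first group was ECs of metastatic lungs from mice treated with DC101, a rat antibody that blocks mouse VEGFR2. ECs of metastatic lungs from mice given control IgG formed the next group, and ECs of healthy lungs from age-matched mice given the same kind of control IgG formed the last. All mice were female NSG, a strain that lacks T, B and natural killer cells. The mice with metastases were injected intravenously at 6 to 8 weeks of age with MDA-MB-231-LM2 cells, a lung-seeking derivative of a human breast cancer line. They received antibody on days 21 and 24, with DC101 given at 40 mg/kg, and were sampled on day 25. ECs were taken from the whole lung, in and outside the nodules, as CD31-positive cells negative for markers of leukocytes, epithelium, fibroblasts, mural cells and the GFP of the cancer cells. The labels give the arrays as biological replicates but do not tie each to its own mouse, so p-values measure the spread between these samples only. In such bulk samples, fewer cells of a type and less RNA per cell cannot be told apart.

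When VEGF binds VEGFR2, phospholipase C releases calcium from internal stores, and calcium with calmodulin switches on the phosphatase calcineurin. Calcineurin removes phosphates from NFAT proteins, which enter the nucleus and switch on genes, while kinases of the GSK3, DYRK and casein kinase families send NFAT back out. Rcan1 is both a target of NFAT and an inhibitor of calcineurin, which closes a feedback loop. The NR4A nuclear receptors and the zinc-finger factors of the EGR family are early response genes, and VEGF is known to raise several of them in cultured human ECs.

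Rcan1, Nr4a1, Nr4a2, Nr4a3 and Egr2 (5 of the 7 genes) had at least 1 promoter window in the RefSeq table of GRCm38.p6. Regions with sites for calcium- and cAMP-responsive factors are printed from these, 5′ to 3′ and ending just before a start site, or for Nr4a3 and Egr2 as a short stretch around the site. Capitals mark the NFAT core GGAAA and the core TGACG of the cAMP response element (CRE), each on either strand, and in Egr2 also the CArG box, the site of serum response factor.
Rcan1 internal promoter (chr16:92400079-92400328, minus strand): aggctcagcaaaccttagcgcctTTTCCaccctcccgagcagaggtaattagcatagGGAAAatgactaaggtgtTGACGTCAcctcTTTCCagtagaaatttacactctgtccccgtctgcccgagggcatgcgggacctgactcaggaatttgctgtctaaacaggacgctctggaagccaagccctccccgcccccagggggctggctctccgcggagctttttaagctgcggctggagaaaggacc
Nr4a1 promoter (chr15:101266596-101266845, plus strand): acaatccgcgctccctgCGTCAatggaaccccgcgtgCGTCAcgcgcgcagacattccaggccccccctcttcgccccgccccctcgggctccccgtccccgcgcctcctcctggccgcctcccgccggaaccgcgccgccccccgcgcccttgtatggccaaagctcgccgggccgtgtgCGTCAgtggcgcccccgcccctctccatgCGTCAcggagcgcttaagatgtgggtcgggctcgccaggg
Nr4a2 promoter (chr2:57124004-57124253, minus strand): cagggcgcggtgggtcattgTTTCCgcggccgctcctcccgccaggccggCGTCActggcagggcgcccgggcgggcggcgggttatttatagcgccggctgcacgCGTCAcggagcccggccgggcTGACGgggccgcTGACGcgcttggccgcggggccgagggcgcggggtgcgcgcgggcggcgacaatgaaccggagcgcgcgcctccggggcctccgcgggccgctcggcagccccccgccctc
Nr4a3 site (chr4:48045086-48045115, plus strand): ccatgtCGTCAcatTGACGtctcgcattcc
Egr2 site (chr10:67537795-67537824, plus strand): gtCCATATATGGgcagcgaCGTCAcgggta

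The internal promoter of Rcan1 lies inside the gene and starts the short transcript that calcineurin and NFAT induce, so it is the one shown. Its 250 bases held 3 NFAT cores and 1 full CRE, TGACGTCA, which is made of 2 overlapping CRE cores. The 250 bases before the upstream start site of Rcan1 held 0 NFAT cores and 0 CRE cores. The 250 bases before the start sites of Nr4a1, Nr4a2 and Nr4a3 held 4 CRE cores each, and none held a full CRE. The start sites used for Nr4a1 (101266846) and Nr4a3 (48045305) lie inside the annotated genes, which begin at 101253902 and 48045078. The printed Egr2 stretch also lies inside its gene, which begins at 67534469. In the Egr2 stretch, chosen for its CArG box, that box stood next to a CRE core. Egr2 has other windows. The most upstream (67535249 to 67535498) held 0 NFAT cores, 0 CRE cores and 0 CArG boxes. That at 67537316 to 67537565 held 1 CArG box, 3 NFAT cores and 0 CRE cores. Of 32851 windows of 250 bases in the table, 55.6% held an NFAT core, 17.8% a CRE core, 1.55% a full CRE and 1.47% a CArG box. The letters of the NR4A site NBRE, AAAGGTCA, found in 1.34% of all windows, were in 0 of the 10 windows of these genes. These matches describe the sequence and do not show that a factor was bound.

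Within groups, pairs of arrays had an r of 0.983 to 0.991 over all genes. All 14 pan-endothelial genes lay above the median of genes, and their mean level was 13.48 to 13.58 in DC101-treated metastatic lungs, 13.51 to 13.52 in IgG-treated metastatic lungs and 13.59 to 13.61 in healthy lungs. Markers of other cell types were measured too and differed between groups. Of all genes, 3.93% were called higher and 2.6% lower with IgG in metastatic against healthy lungs. With IgG in metastatic against healthy lungs, 4 of 8 epithelial markers (Sftpc, Sftpa1, Cdh1 and Ager) and 2 of 6 platelet and erythrocyte markers (Pf4 and Ppbp) were called lower, 4 of 11 macrophage and monocyte markers (C1qa, C1qb, C1qc and Mrc1) were called higher, and of 8 fibroblast and mural markers Col1a1 and Col3a1 were called higher and Dcn lower. Sftpc, the surfactant gene of alveolar epithelium, read 12.47, 13.36 and 11.84 with DC101, 11.29, 12.19 and 11.52 under IgG in metastatic lungs and 12.90, 13.29 and 12.89 in healthy lungs. DC101 replicate 3 had the highest mean of the 4 mesothelial markers, at 8.96, where the other 8 arrays had 7.03 to 7.95. For Gapdh control probes the 3-prime minus 5-prime signal, a gauge of RNA quality, ran from 0.35 to 0.60 under DC101, from 0.47 to 0.57 in metastatic lungs given IgG and from 0.69 to 0.77 in healthy lungs. The part of these differences in the results was not tested. Values given without an array drop everything about that array, so they do not test it either.

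None of the 7 genes passed the test in any of the 3 comparisons. By the probe sets that stood for them, the spread between arrays of a group was wide for most. By limma with Benjamini-Hochberg adjustment over all genes, the comparison of DC101 with IgG in metastatic lungs called 0 of 7 members beside 0% of all genes, and 1209 genes (6.65%) had an unadjusted p under 0.05, again with 0 members. DC101-treated metastatic against healthy lungs called 0 of 7 members beside 2.42% of all genes (1.58% higher and 0.835% lower). IgG-treated metastatic against healthy lungs called 0 of 7 beside 6.53% (3.93% higher and 2.6% lower), and 1 member had an unadjusted p under 0.05 beside 21.3% of all genes. The number of members whose groups did not overlap was 0, 0 and 1 of 7 in these comparisons, beside 12.4%, 23.1% and 27.6% of all genes. The comparisons share groups, so their values are not independent.

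**Figure D1:**
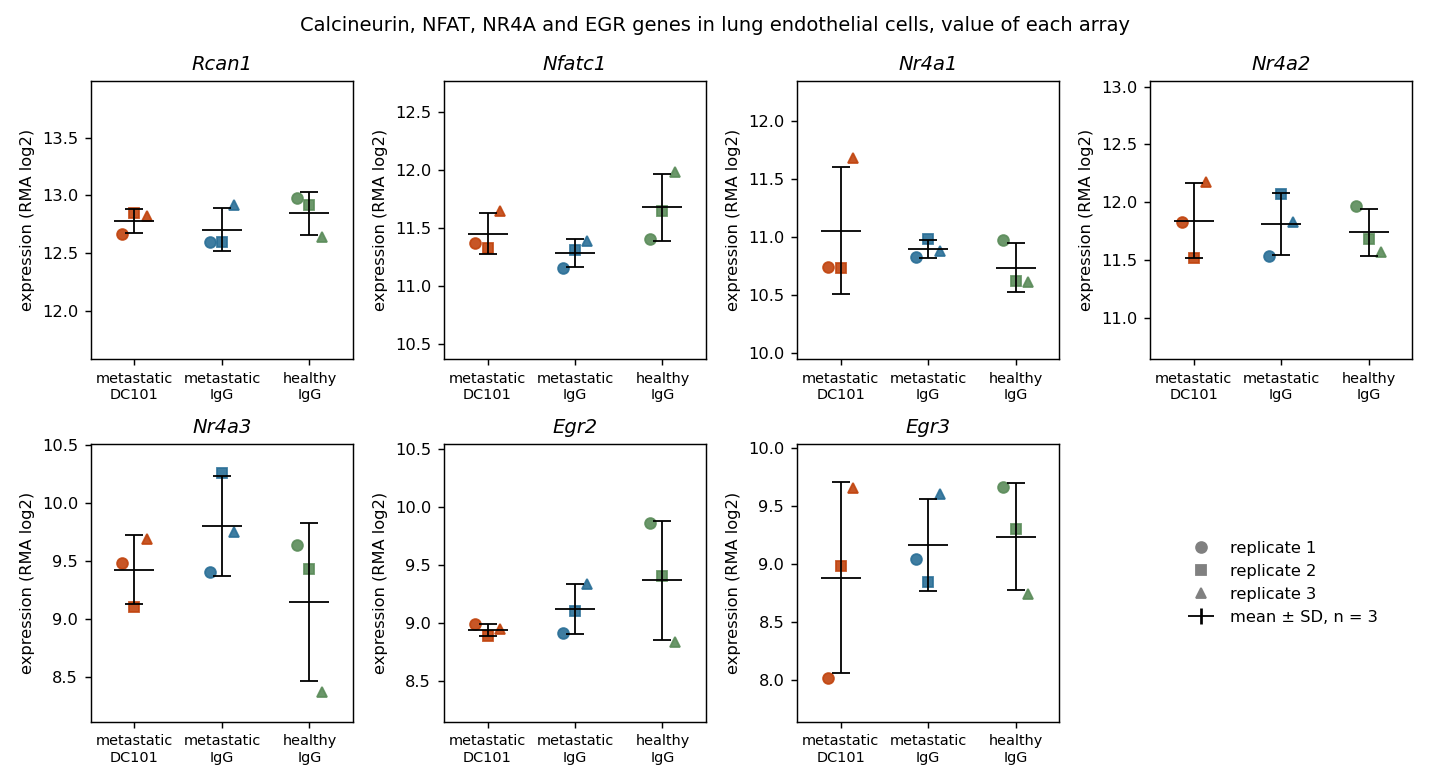
Expression (vertical axes, RMA log2, each spanning the same range of 2.4) of the 7 genes in DC101-treated metastatic, IgG-treated metastatic and healthy IgG-treated lungs, with 1 symbol per array and bars for the mean ± SD of 3 arrays. Groups overlap for every gene and pair of groups except Nfatc1, where the 3 IgG-treated metastatic arrays lie below the 3 healthy ones.

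Rcan1 lies on chromosome 16 (92391951 to 92466169 of GRCm38.p6). It encodes the regulator of calcineurin that serves as the usual readout of the pathway. Its level was 12.66, 12.85 and 12.82 in DC101-treated metastatic lungs, 12.60, 12.60 and 12.92 in IgG-treated metastatic lungs and 12.98, 12.92 and 12.64 in healthy lungs. The 3 sets of values overlapped, and the lowest and the highest array were 0.39 apart. The change with DC101 against IgG in metastatic lungs was 0.08 (SE 0.13, adjusted p = 0.922), and its 95% interval ran from a fold of 0.855 to 1.30. Metastatic lungs with IgG differed from healthy lungs by -0.14 (SE 0.14, adjusted p = 0.62), and those with DC101 by -0.07 (SE 0.13, adjusted p = 0.846). The other Rcan1 probe set, 1416601_a_at, tracked the first over the 9 arrays (r = 0.83) and read 12.43 to 12.84 with DC101, 12.43 to 12.66 with IgG and 12.42 to 12.73 in healthy lungs. Both are of the type that detects several transcripts of a gene, so the short and the long transcript could not be read separately.

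Nfatc1 (chromosome 18, 80606205 to 80713071) encodes the NFAT protein that acts in endothelium during heart valve formation. It had 11.37, 11.33 and 11.65 in DC101-treated metastatic lungs, 11.15, 11.31 and 11.39 in IgG-treated metastatic lungs and 11.41, 11.65 and 11.98 in healthy lungs. The IgG-treated metastatic arrays were all below the healthy arrays, the closest of them being IgG-treated metastatic replicate 3 and healthy replicate 1. The change was -0.39 (SE 0.16), a level 1.31-fold lower, with an unadjusted p of 0.0399 and an adjusted p of 0.208 by limma, so it did not pass. Groups did not overlap in this direction for 14.7% of all genes. Between DC101 and IgG in metastatic lungs the change was 0.17 (SE 0.13, adjusted p = 0.823), and between DC101-treated metastatic and healthy lungs it was -0.23 (SE 0.17, adjusted p = 0.561).

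All 5 Nfatc1 probe sets had a lower mean in IgG-treated metastatic than in healthy lungs, by -0.87 to -0.26, and 4 of the 5 did so without overlap, where 13.7% of all probe sets did. The largest of these differences was that of 1428479_at, which read 10.10, 9.34 and 9.42 in IgG-treated metastatic lungs and 10.40, 10.59 and 10.49 in healthy lungs. Its adjusted p among all probe sets was 0.0656, and that of the others was up to 0.24. This probe set was also lower with DC101 (10.12, 9.54 and 9.79) than in healthy lungs, again without overlap (change -0.68, adjusted p = 0.128), as were 11.8% of all probe sets. Probe sets 1447084_at and 1447085_s_at spanned 8.94 to 9.98 and 9.77 to 10.88 within the DC101 group alone. When the mean of all 5 probe sets stood for the gene, the decrease in IgG-treated metastatic lungs was 0.57 (SE 0.12) and passed (adjusted p = 0.032), with 2.99% of all genes called lower by the same rule. Over the 18 alternatives run for this comparison the change stayed below 0 (-0.87 to -0.24) and this was the only call. The lymphatic markers, of which 4 of 7 were called higher in the same comparison, had a mean level of 11.18 to 11.30 in IgG-treated metastatic and 9.87 to 10.37 in healthy lungs. Without overlap, 6 of these were higher and 1, Lyve1, was lower (13.57, 13.68 and 13.71 against 13.88, 13.76 and 13.91). Of all genes, 13% were higher and 14.7% lower without overlap, and 3.93% were called higher and 2.6% lower. The mean of the 8 epithelial markers was 8.74 to 8.99 in IgG-treated metastatic and 9.32 to 10.01 in healthy lungs, that of the 11 macrophage and monocyte markers 8.996 to 9.111 and 8.606 to 8.763, and that of the 6 platelet and erythrocyte markers 8.29 to 8.41 and 8.96 to 9.15, in the same order of groups and without overlap. Of 6 endocardial and valve markers, 1 was called higher and 1 lower. Their mean was 8.31 to 8.69 in IgG-treated metastatic and 8.24 to 8.54 in healthy lungs. Among these, Npr3 read 12.31, 12.69 and 12.58 in IgG-treated metastatic and 13.34, 13.33 and 13.66 in healthy lungs. Cdh11 went the other way, at 9.44, 10.04 and 10.02 against 8.05, 8.88 and 8.19. The part of these cell types in the Nfatc1 values was not tested.

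**Figure D2:**
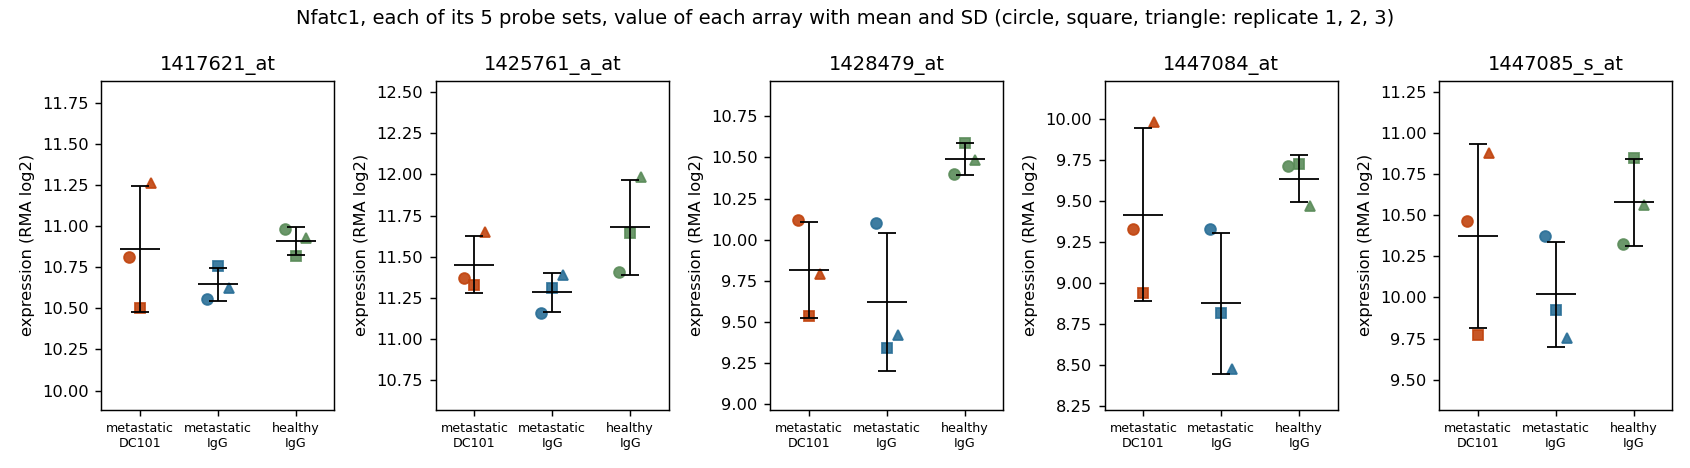
Expression (vertical axes, RMA log2) of Nfatc1 by each of its 5 probe sets in the 3 groups, with 1 symbol per array and bars for the mean ± SD of 3 arrays. IgG-treated metastatic lungs have the lowest mean in all 5 panels, and in 4 of the 5 their arrays lie below all healthy arrays.

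The NR4A genes encode orphan nuclear receptors that act without a classical ligand and are switched on within minutes to hours of a stimulus. Nr4a1 (chromosome 15, 101253902 to 101274795) takes part in the angiogenic response to VEGF. It had 10.74, 10.74 and 11.69 in DC101-treated metastatic lungs, 10.83, 10.99 and 10.88 in IgG-treated metastatic lungs and 10.98, 10.62 and 10.61 in healthy lungs. DC101 replicate 3 stood above the other 8 arrays, and the other DC101 arrays were below all IgG-treated metastatic ones. The change with DC101 was 0.16 against IgG in metastatic lungs (SE 0.25, adjusted p = 0.914) and 0.32 against healthy lungs (SE 0.27, adjusted p = 0.604). Without DC101 replicate 3 these became -0.16 (SE 0.11, adjusted p = 0.807) and 0.00 (SE 0.15, adjusted p = 0.995). IgG-treated metastatic lungs differed from healthy lungs by 0.16 (SE 0.12, adjusted p = 0.524).

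Nr4a2 (chromosome 2, 57106830 to 57124003) encodes the family member best known for its role in dopamine neurons. Its level was 11.83, 11.52 and 12.17 in DC101-treated metastatic lungs, 11.54, 12.07 and 11.83 in IgG-treated metastatic lungs and 11.97, 11.68 and 11.57 in healthy lungs, and all groups overlapped. With DC101 against IgG in metastatic lungs the change was 0.03 (SE 0.20, adjusted p = 0.985). IgG-treated metastatic lungs differed from healthy ones by 0.07 (SE 0.17, adjusted p = 0.857), and DC101-treated ones by 0.10 (SE 0.19, adjusted p = 0.839). The 6 probe sets of Nr4a2 did not track each other closely (r from -0.33 to 0.84 between pairs), and 5 of the 6 had a higher mean in IgG-treated metastatic than in healthy lungs. The exception, 1433422_at, read 7.99, 8.24 and 8.15 in IgG-treated metastatic and 8.52, 8.46 and 8.43 in healthy lungs without overlap (change -0.34, adjusted p = 0.13). Of all probe sets, 13.7% were lower without overlap in this comparison.

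Nr4a3 (chromosome 4, 48045078 to 48086447), the third receptor of the family, is known to be induced by VEGF in cultured human ECs. It had 9.49, 9.10 and 9.69 in DC101-treated metastatic lungs, 9.40, 10.26 and 9.75 in IgG-treated metastatic lungs and 9.64, 9.43 and 8.37 in healthy lungs. The lowest array was healthy replicate 3 and the highest was IgG-treated metastatic replicate 2, and every pair of groups overlapped. By the probe sets that stood for the genes, Nr4a3 had the largest member change of any comparison. It was 0.66 (SE 0.36) between IgG-treated metastatic and healthy lungs, with a 95% interval of the fold from 0.876 to 2.84 (adjusted p = 0.352). The change with DC101 was -0.38 against IgG in metastatic lungs (SE 0.24, adjusted p = 0.797) and 0.28 against healthy lungs (SE 0.33, adjusted p = 0.73). Without healthy replicate 3 the changes against healthy lungs became 0.27 with IgG in metastatic lungs (SE 0.25, adjusted p = 0.634) and -0.11 with DC101 (SE 0.20, adjusted p = 0.863). The 3 probe sets of Nr4a3 had r from 0.09 to 0.48 between pairs. Probe set 1421080_at, which read 9.04 to 9.58 over all arrays, gave 0.08 for IgG-treated metastatic against healthy lungs (adjusted p = 0.865). For the same groups 1421079_at gave 0.15 (adjusted p = 0.72).

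The EGR proteins are zinc-finger factors that bind GC-rich sites. Egr2 (chromosome 10, 67534469 to 67542188) is known for hindbrain and Schwann cell development and for its induction by NFAT in T cells. It had 8.99, 8.88 and 8.95 in DC101-treated metastatic lungs, 8.92, 9.11 and 9.34 in IgG-treated metastatic lungs and 9.86, 9.41 and 8.83 in healthy lungs. The DC101 arrays lay within 0.11 of each other, and the healthy arrays spread over 1.03 and covered both other groups. The change with DC101 was -0.18 against IgG in metastatic lungs (SE 0.13, adjusted p = 0.815) and -0.43 against healthy lungs (SE 0.24, adjusted p = 0.423). IgG-treated metastatic lungs differed from healthy ones by -0.25 (SE 0.26, adjusted p = 0.642). The changes against healthy lungs depended on which healthy arrays were in the fit. Without healthy replicate 1 they became 0.00 with IgG in metastatic lungs (adjusted p = 0.998) and -0.18 with DC101 (adjusted p = 0.753), and without healthy replicate 3 they became -0.51 (adjusted p = 0.215) and -0.69 (adjusted p = 0.136).

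Egr3 (chromosome 14, 70077317 to 70082613) is known to be induced by VEGF in cultured human ECs. Its values were 8.01, 8.98 and 9.66 in DC101-treated metastatic lungs, 9.04, 8.84 and 9.61 in IgG-treated metastatic lungs and 9.66, 9.30 and 8.74 in healthy lungs. DC101 replicate 1 was the lowest of the 9 arrays, while DC101 replicate 3 was level with the highest array of healthy lungs, and all groups overlapped. The change with DC101 was -0.28 against IgG in metastatic lungs (SE 0.40), with a 95% fold interval of 0.432 to 1.57 (adjusted p = 0.908), and -0.35 against healthy lungs (SE 0.41, adjusted p = 0.728). IgG-treated metastatic lungs differed from healthy ones by -0.07 (SE 0.28, adjusted p = 0.918). Without DC101 replicate 1 the changes with DC101 were 0.15 against IgG in metastatic lungs (adjusted p = 0.966) and 0.08 against healthy lungs (adjusted p = 0.937), and without DC101 replicate 3 they were -0.67 (adjusted p = 0.759) and -0.74 (adjusted p = 0.389). The other Egr3 probe set, 1421486_at, read 8.71 to 8.92 with DC101, against 8.73 to 8.89 under IgG in metastatic lungs and 8.73 to 9.22 in healthy lungs.

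**Figure D3:**
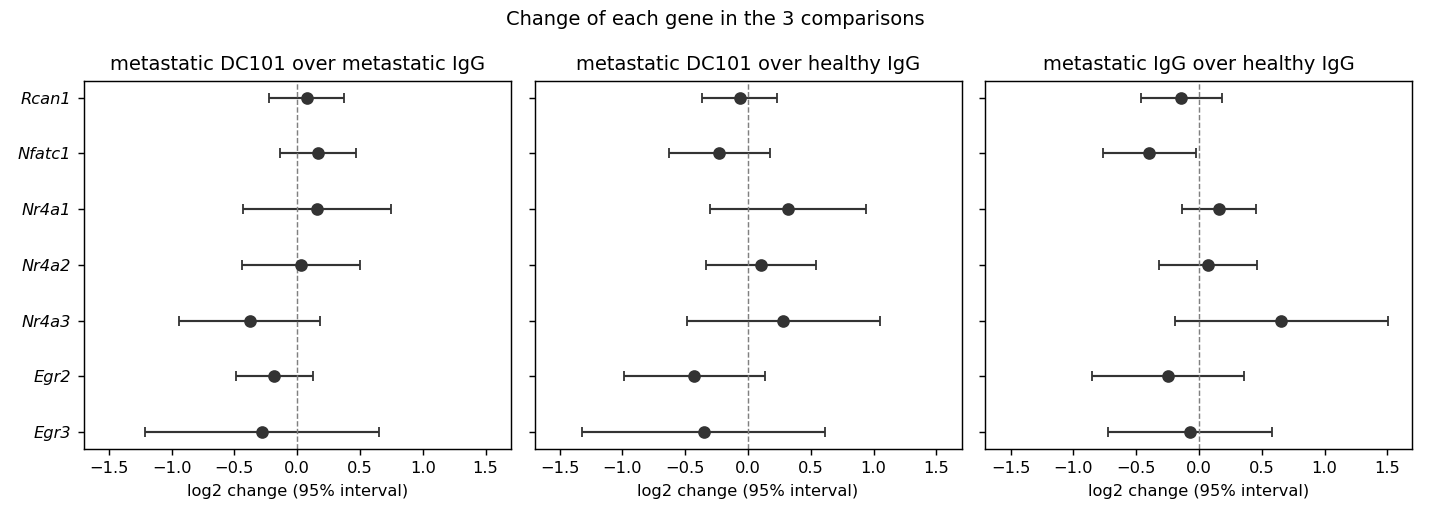
Log2 change (horizontal axes) of the 7 genes in the 3 comparisons, with points for the limma estimate and bars for its 95% interval. All intervals include 0 except that of Nfatc1 for IgG-treated metastatic against healthy lungs (-0.77 to -0.02).

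Pooled over the groups, the replicates differed more than for a typical gene in 6 of the 7 probe sets that stood for the genes. The SD pooled over the 3 groups was 0.59 for Egr3, larger than in 99% of all genes, and 0.49 for Nr4a3 (97.3%), 0.34 for Nr4a1 (88.6%), 0.32 for Egr2 (86.6%), 0.27 for Nr4a2 (77.9%) and 0.21 for Nfatc1 (62%). The exception was Rcan1, at 0.16 (44.2%). These SDs depend on the probe set. In DC101-treated metastatic, IgG-treated metastatic and healthy lungs, Egr3 probe set 1421486_at had SDs of 0.11, 0.08 and 0.24. In the same order, Nr4a3 probe set 1421080_at had 0.15, 0.22 and 0.28, and Egr2 probe set 1427682_a_at had 0.17, 0.17 and 0.69. The median SD of the members was 0.30 with DC101, 0.21 under IgG in metastatic lungs and 0.29 in healthy lungs, where all genes had 0.17, 0.14 and 0.14. In the same order, 5, 5 and 7 of the 7 members had an SD above the median of all genes. Nr4a1 had an SD of 0.55 with DC101 and 0.08 under IgG in metastatic lungs. The median change of the members was 0.03 with DC101 against IgG in metastatic lungs, where that of all genes was -0.02, and -0.07 both for DC101-treated and for IgG-treated metastatic lungs against healthy lungs, where all genes had -0.04 and -0.02.

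The array with the highest level differed between members. Healthy replicate 1 was the highest array for Rcan1, Egr2 and Egr3, DC101 replicate 3 for Nr4a1 and Nr4a2, IgG-treated metastatic replicate 2 for Nr4a3 and healthy replicate 3 for Nfatc1. Healthy replicate 3 was at the same time the lowest array for Nr4a1, Nr4a3 and Egr2. As a description over 9 arrays, with no test, Nr4a2 tracked Nr4a1 (r = 0.79) and Nr4a3 (r = 0.72), and Rcan1 tracked Egr2 (r = 0.71) and Egr3 (r = 0.70). With the group means removed these r were 0.80, 0.80, 0.78 and 0.78. Other pairs across these genes had a like r within groups, such as Nr4a3 with Egr2 (0.79, against 0.39 with group means kept), Nr4a1 with Egr3 (0.71, against 0.49) and Nr4a2 with Egr2 (0.53, against 0.33), so the pairs do not divide the members into separate sets. For Rcan1 and Nr4a1 the r was 0.14, and 0.265 within groups. For Nfatc1 and Nr4a3 it was -0.61, and -0.38 within groups. The mean of 21 immediate early genes was 12.17, 12.22 and 12.31 with DC101, 12.12, 12.21 and 12.26 under IgG in metastatic lungs and 12.31, 12.24 and 12.32 in healthy lungs, and the part of stress during cell isolation was not tested.

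**Figure D4:**
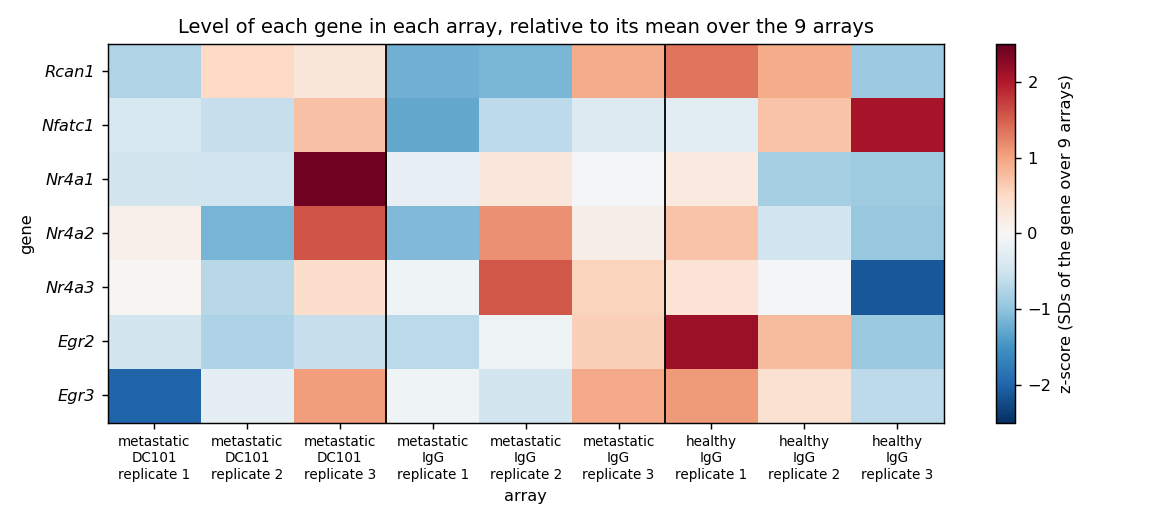
Level of each of the 7 genes (rows) in each of the 9 arrays (columns, by group and replicate) as a z-score, the distance from the gene's mean over the 9 arrays in its SDs. High and low arrays occur within each group, such as healthy replicate 1 (high Egr2), healthy replicate 3 (high Nfatc1, low Nr4a3) and DC101 replicate 3 (high Nr4a1).

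Among all genes outside the set, Gpx2, a glutathione peroxidase, had the profile most like the mean z-score of the 7 members over the 9 arrays (r = 0.93), followed by Trim39 (0.93), Retnlb (0.92), BC030500 (0.92) and Cdk9, the kinase of transcription elongation (0.88). By single member, the closest profiles were those of the cytokine gene Il1b and Cstdc2 for Rcan1 (0.94 each), Il2ra, an interleukin receptor chain, and Prune1 for Nfatc1 (0.98 and 0.97), Lypd1 and Msln for Nr4a1 (0.97 each), Syn2 and Msgn1 for Nr4a2 (0.95 each), Atrip and Ptpn3 for Nr4a3 (0.95 and 0.94), 4930509E16Rik and Klhl26 for Egr2 (0.92 each) and 4930556N09Rik and Sipa1l3 for Egr3 (0.91 each). Msln, the mesothelial marker mesothelin, read 7.25, 7.23 and 9.27 with DC101, 7.52, 7.71 and 7.34 under IgG in metastatic lungs and 7.66, 6.86 and 7.34 in healthy lungs. Like Nr4a1, it was highest in DC101 replicate 3. These genes were ranked out of all genes on few arrays, and the likeness is a description.

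Upstream of NFAT, no measured gene passed the test in any comparison, whether calcineurin subunits (4 of 4 measured), calcineurin inhibitors and anchors (6 of 7), genes of calcium release and entry (8 of 12) or NFAT kinases (7 of 7). The share of all genes called was 0% with DC101 against IgG in metastatic lungs. Against healthy lungs it was 2.42% with DC101 and 6.53% with IgG. Beside such shares, 0 calls in lists this short do not show that these genes were unchanged. The calcineurin catalytic subunit gene Ppp3ca averaged 12.32 ± 0.37 with DC101, 12.05 ± 0.01 under IgG in metastatic lungs and 12.07 ± 0.14 in healthy lungs (SD, n = 3 each). Plcg1, the phospholipase that VEGFR2 activates, averaged 12.16 ± 0.09, 12.10 ± 0.03 and 12.12 ± 0.09 in DC101-treated metastatic, IgG-treated metastatic and healthy lungs. Fkbp1a, the protein through which the drug tacrolimus inhibits calcineurin, averaged 13.96 ± 0.04 with DC101, 13.91 ± 0.01 under IgG in metastatic lungs and 13.89 ± 0.04 in healthy lungs. Csnk1d, a casein kinase, averaged 13.36 ± 0.10 with DC101, 13.43 ± 0.05 under IgG in metastatic lungs and 13.46 ± 0.04 in healthy lungs.

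Of the 5 NFAT genes, 0 passed in any comparison, beside the same shares of all genes. Nfat5, the member that does not depend on calcineurin, averaged 12.51 ± 0.01 with DC101, 12.53 ± 0.09 under IgG in metastatic lungs and 12.52 ± 0.06 in healthy lungs (SD, n = 3 each). Nfatc4 was named after its values were seen, since it was lower without overlap beside Nfatc1. It had 10.87, 10.89 and 10.62 in IgG-treated metastatic lungs and 11.27, 11.18 and 11.15 in healthy lungs (change -0.40, adjusted p = 0.0743). Groups did not overlap in this direction for 14.7% of all genes. The same held for 2 of 7 NFAT kinases and 2 of 6 NR4A and RXR genes, and 0 of either list were higher without overlap. Of the 6 NR4A and RXR receptor genes, 0 passed, again beside these shares of all genes. Rxra, a retinoid receptor that pairs with Nr4a1 and Nr4a2, averaged 11.77 ± 0.12 with DC101, 11.79 ± 0.13 under IgG in metastatic lungs and 11.96 ± 0.02 in healthy lungs.

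Of the 6 EGR and NAB genes, 1 passed, lower with IgG in metastatic against healthy lungs, where 2.6% of all genes were called lower. Egr1, the early growth response factor most used as a marker of stimulation, had 13.54, 13.51 and 13.57 in DC101-treated metastatic lungs, 13.35, 13.32 and 13.42 in IgG-treated metastatic lungs and 13.86, 13.72 and 13.77 in healthy lungs. The 3 groups did not overlap, with DC101 between the others. Between DC101 and IgG in metastatic lungs, 12.4% of all genes did not overlap. Against healthy lungs this share was 23.1% with DC101 and 27.6% with IgG. Egr1 fell in IgG-treated metastatic lungs against healthy lungs (change -0.43, SE 0.09, adjusted p = 0.0341), and the call was lost without any 1 of the 6 arrays (adjusted p from 0.0727 to 0.11) and after scaling to the pan-endothelial genes. With DC101 the change was 0.18 against IgG in metastatic lungs (adjusted p = 0.765) and -0.24 against healthy lungs (adjusted p = 0.266).

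Among 18 endothelial genes known as targets of NFAT, NR4A or EGR factors, 0 passed with DC101 against IgG in metastatic lungs, 1 was lower with DC101 against healthy lungs, and 2 were higher and 1 lower with IgG in metastatic against healthy lungs. Their median changes were -0.18, -0.05 and 0.04 in these comparisons. Of all genes, 0% were called in the first, 0.835% lower in the second, and 3.93% higher and 2.6% lower in the third. Stc1, the secreted hormone stanniocalcin, had 9.94, 9.26 and 10.05 in DC101-treated metastatic lungs, 10.25, 10.19 and 10.27 in IgG-treated metastatic lungs and 11.17, 11.07 and 10.97 in healthy lungs, with no overlap between any groups. It fell by 0.83 with IgG in metastatic lungs against healthy lungs (adjusted p = 0.00378) and by 1.32 with DC101 against healthy lungs (adjusted p = 0.0248). The second call was lost without DC101 replicate 1 (adjusted p = 0.0557) or healthy replicate 1 (0.106), 2 (0.0846) or 3 (0.0715). Between DC101 and IgG in metastatic lungs the change was -0.49 (SE 0.21, adjusted p = 0.741). Groups did not overlap for 12.4% of all genes in that comparison, and against healthy lungs for 23.1% with DC101 and 27.6% with IgG.

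Mef2c, a transcription factor of vascular development, had 11.55, 12.11 and 11.78 in DC101-treated metastatic lungs, 12.24, 12.25 and 12.17 in IgG-treated metastatic lungs and 11.64, 11.49 and 11.42 in healthy lungs. It rose 1.63-fold with IgG in metastatic against healthy lungs (adjusted p = 0.00771). All DC101 values were below those with IgG in metastatic lungs, as for 6.95% of all genes. That change (-0.41, SE 0.15) did not pass (adjusted p = 0.741). Ccnd1, the gene of cyclin D1, rose by 0.76 in the same comparison with healthy lungs (adjusted p = 0.00426) and averaged 12.81 ± 0.23 with DC101, 13.03 ± 0.07 under IgG in metastatic lungs and 12.27 ± 0.04 in healthy lungs (SD, n = 3 each). Icam1, an adhesion molecule, averaged 13.70 ± 0.01, 13.58 ± 0.09 and 13.75 ± 0.09 in DC101-treated metastatic, IgG-treated metastatic and healthy lungs and passed in no comparison.

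Kdr, which encodes VEGFR2 itself, averaged 13.66 ± 0.25 with DC101, 13.76 ± 0.05 under IgG in metastatic lungs and 13.80 ± 0.06 in healthy lungs (SD, n = 3 each) and passed in no comparison. The antibody acts on the receptor protein, so the level of this transcript is no check of the blockade. Of the 5 VEGF receptor and neuropilin genes only Nrp2, the co-receptor for VEGF-C, was called. It was 3.01-fold higher with IgG in metastatic lungs against healthy lungs (adjusted p = 0.00141), where 3.93% of all genes were called higher. With DC101 it was 2.47-fold higher than in healthy lungs (adjusted p = 0.00748), where 1.58% of all genes were called higher. The second call was lost with the mean of all probe sets and without variance moderation. Nrp2 is also expressed by lymphatic ECs. The lymphatic markers had a mean level of 10.83 to 11.39 with DC101, 11.18 to 11.30 under IgG in metastatic lungs and 9.87 to 10.37 in healthy lungs. Of these 7 markers, Lyve1 alone was lower with IgG in metastatic lungs than in healthy lungs. The part of lymphatic ECs in the Nrp2 values was not tested.

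Of 21 immediate early genes, 0 were called with DC101 against IgG in metastatic lungs, beside 0% of all genes. Against healthy lungs, 1 was called higher and 3 lower with IgG in metastatic lungs, beside 3.93% and 2.6% of all genes. With DC101, 1 was called higher and 1 lower, beside 1.58% and 0.835%. With IgG in metastatic lungs against healthy lungs, Ier2, Jund and Klf4, all regulators of transcription, fell by 0.93, 0.47 and 0.38 (adjusted p = 0.00334, 0.0237 and 0.0448), and Myc, the growth regulator, rose by 2.05 (adjusted p = 0.000486). The Jund and Klf4 calls were lost without any 1 of the 6 arrays (adjusted p from 0.0606 to 0.0745 and from 0.0821 to 0.127). With DC101 against healthy lungs Ier2 fell by 0.67 (adjusted p = 0.0249) and Myc rose by 1.62 (adjusted p = 0.00549), and the Ier2 call was lost without any 1 array (adjusted p from 0.0524 to 0.106).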

How the data were processed

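The values deposited by the authors are log2 expression values, 1 column per array. According to the methods, raw array files went through robust multiarray averaging (RMA) in Chipster. No log base is stated, and base 2 is assumed from the RMA method. RMA equalises arrays, so a change of total RNA cannot be seen, and the 3-prime amplification from little RNA limits dim genes. Probe sets were named through the platform annotation: 34945 had 1 symbol, 932 several and 9160 none, and 64 control probe sets were left out. Gene positions and promoters are those of RefSeq, GRCm38.p6.

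Each comparison used its own 6 arrays in limma 3.58.1 (R 4.3.3; lmFit, eBayes, two-sided), with Benjamini-Hochberg adjustment over 18193 genes and calls at an adjusted p under 0.05. The 3 arrays per group limit the precision. An exact permutation test of 3 against 3 arrays cannot go below p = 0.1 and was not used. The text names the 7 members, from each pathway list up to 4 called genes with the largest changes and the gene with the highest mean, and the genes whose profiles are most like the members. Members and lists were chosen with earlier results of these data known. Alternatives were the probe set rule, dim genes, moderation, scaling, all 9 arrays in 1 fit, a replicate block and leaving out each array. Those for called pathway genes were chosen after seeing the data.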

Additional observations from a re-analysis of the deposited data

How the results depend on the processing

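In all alternatives the number of members called stayed at 0 in each comparison, except that the mean of all probe sets called 1 member, Nfatc1, with IgG in metastatic against healthy lungs (-0.57, adjusted p = 0.032). Of 111 alternative values per comparison, the sign of a member's uncalled change turned in 10 with DC101 against IgG in metastatic lungs, in 10 with DC101 against healthy lungs and in 7 with IgG in metastatic against healthy lungs. Leaving out probe sets of the _a, _s and _x types left no value for Rcan1. Both of its probe sets are of the _a type, which detects several transcripts of a gene.

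The number of all genes called moved more. With IgG in metastatic against healthy lungs it was 1188, but 376 without variance moderation, 689 with the replicate block and 556 to 759 with 1 array left out. With DC101 against healthy lungs it was 440, but 662 with all 9 arrays in 1 fit, 14 without moderation, 247 with the replicate block and 110 to 361 with 1 array left out. With DC101 against IgG in metastatic lungs it stayed at 0 in every alternative, replicate block included. Arrays with the same replicate number did not deviate together over all genes (r from -0.05 to 0.08). The labels do not say whether the numbers pair the arrays, and such an r cannot exclude a pairing that acts on some genes. The called pathway genes kept their direction in all 180 alternative values, and 42 of these were no longer past the threshold. Without variance moderation Ier2, Myc, Nrp2 and Stc1 lost their calls with DC101 against healthy lungs. The replicate block ended the calls of Egr1, Jund and Klf4 with IgG in metastatic against healthy lungs (adjusted p = 0.0937, 0.0723 and 0.11) and of Ier2 with DC101 against healthy lungs (adjusted p = 0.0777). With the mean of all probe sets Nrp2 and Stc1 lost them there, and Jund with IgG in metastatic against healthy lungs. Scaling to pan-endothelial genes ended the calls of Egr1 and Klf4 with IgG in metastatic against healthy lungs. Klf4 was also lost without the _a, _s and _x probe set types. Egr3, Nr4a3 and Nr4a1 had wide SDs by the probe sets that stood for them. With these SDs and 3 arrays a group, changes of the size measured here could not be told from 0.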
